A study of Mus musculus with 8 samples.

Results

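The genes examined here are the 36 centromere, kinetochore and condensin genes of the mouse count table, taken by symbol from its 27036 genes, and all 36 passed the filter on low counts. They were grouped by role into the centromeric chromatin genes *Cenpa* and *Cenpb*, 11 genes of the inner kinetochore network, 9 genes of the outer kinetochore, 8 condensin genes, 3 chromosome passenger genes and 2 shugoshin genes. The set also holds *Cenpj*, which carries a centromere-type name but encodes a centriole protein. RNA had been sequenced, after removal of ribosomal RNA, in 3 WT, 3 PIN (prostatic intraepithelial neoplasia) and 2 PCa (prostatic adenocarcinoma) libraries. WT libraries were made from normal prostate tissue, and PIN and PCa libraries from lesions that had been checked under the microscope and selected for a large majority of atypical or tumor cells. The WT mice were R26 mTmG/+:Osr1 Cre/+. All groups carry the Osr1-Cre driver and the mTmG reporter, itself floxed and at the R26 locus. Only the mice of the PIN and PCa tissues carry a further floxed transgene, on the other R26 allele. In these mice the further transgene becomes active in cells in which *Osr1* has driven Cre and in their descendants. The tissue sequenced also holds other cells. The WT mice were matched to the others in sex and age, and the ages behind single libraries are not given in the sources used here. The labels give each library its own number, and nothing else about the animals behind the replicates, so the p-values measure the spread between these libraries.

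Centromeres are marked by nucleosomes that hold CENP-A in place of histone H3. A constitutive network of CENP proteins sits on this chromatin through the cell cycle, and in mitosis it recruits the outer kinetochore, whose NDC80 complex grips the ends of spindle microtubules. Condensin I and condensin II share the ATPases SMC2 and SMC4 and differ in their other subunits. Condensin II is in the nucleus through interphase, while condensin I reaches chromosomes after the nuclear envelope has broken down. Most of these genes are transcribed in bursts before mitosis, through promoters that often hold a CHR element, the site bound by the MuvB complexes, near CCAAT boxes bound by NF-Y, and some are also controlled by E2F factors. In the adult prostate few epithelial cells divide.

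The promoters of members at both ends of the range of change are shown here, so that the letters around the start site can be read beside the expression values given further on. They were chosen after the values had been seen. Each window is from RefSeq (GRCm38.p6), runs from 250 bases before to 50 bases after the annotated start on the strand of the gene, and matched the mm9 genome exactly at 1 place, whose coordinates are given. Capitals mark the CHR element (TTTGAA), the CCAAT box (CCAAT) and E2F-like words (TTTCCCGC, TTTGGCGC, TTTCGCGC, TTCCCGCC or TTGGCGCC), on either strand. The first 5 windows belong to genes that were called in PCa against WT and the last 2 to genes that were not.

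*Cenpf*, mm9 chr1:191511916-191512215, minus strand: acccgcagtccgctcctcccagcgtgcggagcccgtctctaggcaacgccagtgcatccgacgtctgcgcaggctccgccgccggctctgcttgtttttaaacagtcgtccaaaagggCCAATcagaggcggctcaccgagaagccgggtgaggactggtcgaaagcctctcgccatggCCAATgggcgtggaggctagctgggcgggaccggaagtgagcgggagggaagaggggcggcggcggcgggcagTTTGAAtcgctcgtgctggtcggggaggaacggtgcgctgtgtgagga

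*Ncapg*, mm9 chr5:46060914-46061213, plus strand: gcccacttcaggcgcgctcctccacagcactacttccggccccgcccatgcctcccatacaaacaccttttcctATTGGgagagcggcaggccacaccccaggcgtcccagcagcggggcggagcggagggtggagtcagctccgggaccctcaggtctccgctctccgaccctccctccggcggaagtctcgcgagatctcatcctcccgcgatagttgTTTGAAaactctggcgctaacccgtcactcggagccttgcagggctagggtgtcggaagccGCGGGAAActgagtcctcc

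*Cenpa*, mm9 chr5:30969009-30969308, plus strand: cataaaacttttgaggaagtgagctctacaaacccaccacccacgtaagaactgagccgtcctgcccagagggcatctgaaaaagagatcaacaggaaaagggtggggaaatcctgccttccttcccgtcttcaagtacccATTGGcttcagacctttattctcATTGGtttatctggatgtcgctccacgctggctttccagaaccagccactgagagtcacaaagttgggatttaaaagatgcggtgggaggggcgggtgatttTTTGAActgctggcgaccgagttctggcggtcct

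*Cdca8*, mm9 chr4:124614112-124614411, minus strand: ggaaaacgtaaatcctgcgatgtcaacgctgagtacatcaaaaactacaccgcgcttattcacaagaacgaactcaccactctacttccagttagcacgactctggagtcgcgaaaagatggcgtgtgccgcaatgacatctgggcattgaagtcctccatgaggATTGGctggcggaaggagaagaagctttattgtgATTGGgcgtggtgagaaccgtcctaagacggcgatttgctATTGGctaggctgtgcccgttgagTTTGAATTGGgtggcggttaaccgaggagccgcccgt

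*Smc2*, mm9 chr4:52451843-52452142, plus strand: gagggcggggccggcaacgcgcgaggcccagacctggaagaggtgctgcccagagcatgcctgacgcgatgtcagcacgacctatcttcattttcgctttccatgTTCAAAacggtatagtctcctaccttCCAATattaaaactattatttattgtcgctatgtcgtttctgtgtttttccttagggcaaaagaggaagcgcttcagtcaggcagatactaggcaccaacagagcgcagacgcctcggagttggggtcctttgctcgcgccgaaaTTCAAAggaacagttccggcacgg

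*Ncaph2*, mm9 chr15:89185900-89186199, plus strand: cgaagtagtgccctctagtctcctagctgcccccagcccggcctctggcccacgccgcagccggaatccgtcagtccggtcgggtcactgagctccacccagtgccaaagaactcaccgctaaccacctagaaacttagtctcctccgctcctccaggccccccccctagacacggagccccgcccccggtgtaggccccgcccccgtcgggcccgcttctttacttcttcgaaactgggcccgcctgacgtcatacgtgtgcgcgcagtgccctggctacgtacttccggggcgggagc

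*Cenpb*, mm9 chr2:131005754-131006053, minus strand: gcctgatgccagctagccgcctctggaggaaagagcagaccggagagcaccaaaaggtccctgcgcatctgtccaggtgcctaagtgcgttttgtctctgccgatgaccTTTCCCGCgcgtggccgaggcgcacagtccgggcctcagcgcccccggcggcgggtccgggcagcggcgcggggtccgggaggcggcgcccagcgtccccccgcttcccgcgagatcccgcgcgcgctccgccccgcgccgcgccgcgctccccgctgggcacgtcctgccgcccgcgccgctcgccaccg

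In the mm9 annotation (GENCODE vM1) the last 50 bases of the *Cenpf* window lie in its first exon and the other 250 lie upstream of the gene. The *Ncapg* window has 53 bases in an exon, and the *Smc2* window has 28. The annotation places the start of *Cenpa* further upstream than RefSeq does, so that 159 bases of its window are exonic. The whole *Cdca8* window lies inside its annotated gene, with 168 bases in exons and 132 in an intron. The windows of *Ncaph2* and *Cenpb* each have 50 exonic bases, and each also touches a neighboring gene, *Lmf2* and *Spef1*.

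A window was found for 32 of the 36 members (none for *Spc24*, *Nsl1*, *Smc4* and *Incenp*), among them 21 of those called in PCa against WT and 11 of those not called. The CHR element was present in 12 of the 32, which is 37.5%, against 20.2% of the 27025 mouse genes with a window of this length. Of the 12 genes, 11 were among the 21 called members and 1 (*Ncapd3*) was among the 11 not called. A CCAAT box was found in 16 of the 21 called members, 3 of the 11 others and 41.1% of all genes. Both elements stood in 9 of the 21 called members, in 0 of the 11 others and in 8.97% of all genes. E2F-like words were spread differently, in 8 of the 21 and 4 of the 11, against 4.65% of all genes. These are counts of letters in a short window, given with no test. A window without a match (*Ncaph2*, *Birc5*, *Nuf2*, *Ncaph*, *Cenpp*, *Cenpt* and *Cenpj*) says nothing about elements further away.

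**Figure D1:**
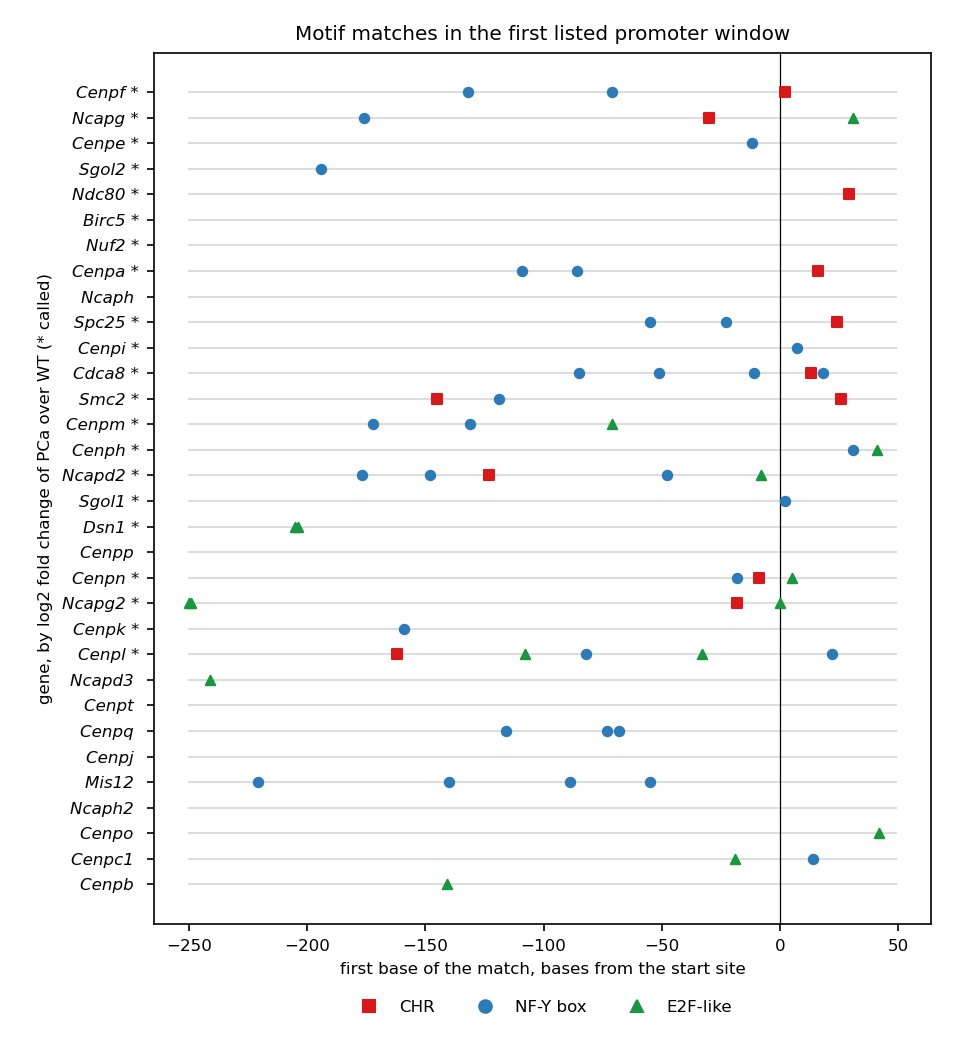
Positions of CHR elements (red squares), CCAAT boxes (blue circles, NF-Y box) and E2F-like words (green triangles) in the first listed promoter window of the 32 members that have one. The x axis gives the first base of each match in bases from the start site, and genes are ordered from the largest to the smallest log2 fold change of PCa over WT, with called genes starred. The CHR elements drawn all belong to called members, 11 of 21, and the match of the uncalled *Ncapd3* is in a second window that is not drawn.

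Of the 11 called members with a CHR element, 9 held one within 30 bases of the start base. Counted with the start base as 0, the first base was 2 bases after the start in *Cenpf*, 16 after it in *Cenpa*, 13 after it in *Cdca8*, 24 after it in *Spc25*, 29 after it in *Ndc80* and, for the nearer of 2, 26 after it in *Smc2*. It lay 30 bases before the start in *Ncapg*, 18 before it in *Ncapg2* and 9 before it in *Cenpn*, and further away, 123 and 162 bases before it, in *Ncapd2* and *Cenpl*. The CCAAT boxes of *Cenpf* began 132 and 71 bases before the start, and those of *Cenpa* 109 and 86 bases before it. In *Cdca8* the CHR element at 13 overlaps a CCAAT box at 18, so that these capitals run together.

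The libraries held between 21751803 and 29730420 counts on genes. The 36 members together took 0.0327% to 0.0433% of the counts of a WT library, 0.0445% to 0.0525% in PIN, and 0.132% and 0.124% in PCa 1 and PCa 2, so single members rested on 8 to 4373 counts in a library. Expression levels are given as CPM, counts per 1000000 counts after adjustment of the library sizes with the trimmed mean of M-values, and as TPM, the same share of all transcripts after division by exon length, where genes are compared per length. In edgeR's quasi-likelihood test over the 14034 genes that passed the filter, a gene was called changed where the log2 fold change exceeded 1 in either direction and the Benjamini-Hochberg adjusted p was under 0.05. Log2 fold changes are given ± their standard error. The libraries also differed in other cells and tissues. Summed levels of 5 smooth muscle markers were 1911 to 4620 CPM in WT, 3027 to 5421 in PIN, and 41.2 and 17.9 in PCa 1 and 2, and all 5 fell in PCa against WT. The luminal gene *Pbsn* (probasin) stood at 6552, 23968 and 12752 CPM in WT, 6690.4, 12352 and 13097 in PIN, and 8.53 and 60.8 in PCa. Basal epithelial markers, 4 in all, summed to 604 CPM in PCa 1 and 27.4 in PCa 2, and 6 leukocyte markers to 145 and 18.9, so that the PCa libraries differed from each other in both. Endothelial markers, also 4, summed to 12.7 to 85.8 CPM in WT, 69.7 to 94.7 in PIN, and 105 and 147 in PCa 1 and 2. Both PCa sums lay above all others, and 0 of these 4 genes were called in PCa against WT. The 4 seminal vesicle genes summed to 14516 CPM in WT 1 and 2757 in PCa 1, against at most 94.3 in any other library, and the counts of genes called in the comparisons with PCa are also given without these libraries. Of 5 testis and meiosis markers, *Sycp3*, *Dmc1*, *Tnp1* and *Prm1* were under 1 CPM in every library. In bulk tissue, a change in the share of dividing cells and a change in RNA per cell cannot be told apart, and the part of these tissue differences in the results was not tested. The number series in the library labels also set WT 1, the other WT libraries, and PIN with PCa apart. If these series are batches, they cannot be told apart from genotype or lesion in any contrast with WT.

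To see which members differ between tumor and normal prostate, PCa was compared with WT. *Cenpf*, *Ncapg*, *Cenpe* and *Sgol2* rose most, by 4.20, 4.18, 3.88 and 3.79 on the log2 scale, which is 18.4-, 18.1-, 14.8- and 13.8-fold. In all, 23 of the 36 members rose and 0 fell, while 4.35% of all tested genes were called higher. Over the members the median log2 fold change was 2.19, or 4.57-fold, against 0.01 over all tested genes, and 35 of 36 values were above 0. Both PCa libraries lay above all 3 WT libraries for 30 of the 36 members, an arrangement that 17.7% of all tested genes showed. The count of 23 became 15 without WT 1, 12 without WT 3, 13 without PIN 3, 21 without PCa 1, 20 without both WT 1 and PCa 1, and 9 with only the 2 groups compared. These 9 genes (*Ndc80*, *Nuf2*, *Cenpe*, *Cenpf*, *Smc2*, *Ncapg*, *Birc5*, *Cdca8* and *Sgol2*) were called in each of the 17 fits made. The calls did not spread evenly over the roles, with 6 of 9 outer kinetochore genes and 3 of 3 chromosome passenger genes called, but 6 of 11 inner kinetochore genes and 1 of 3 condensin II genes. Whether the roles differ was not tested.

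**Figure D2:**
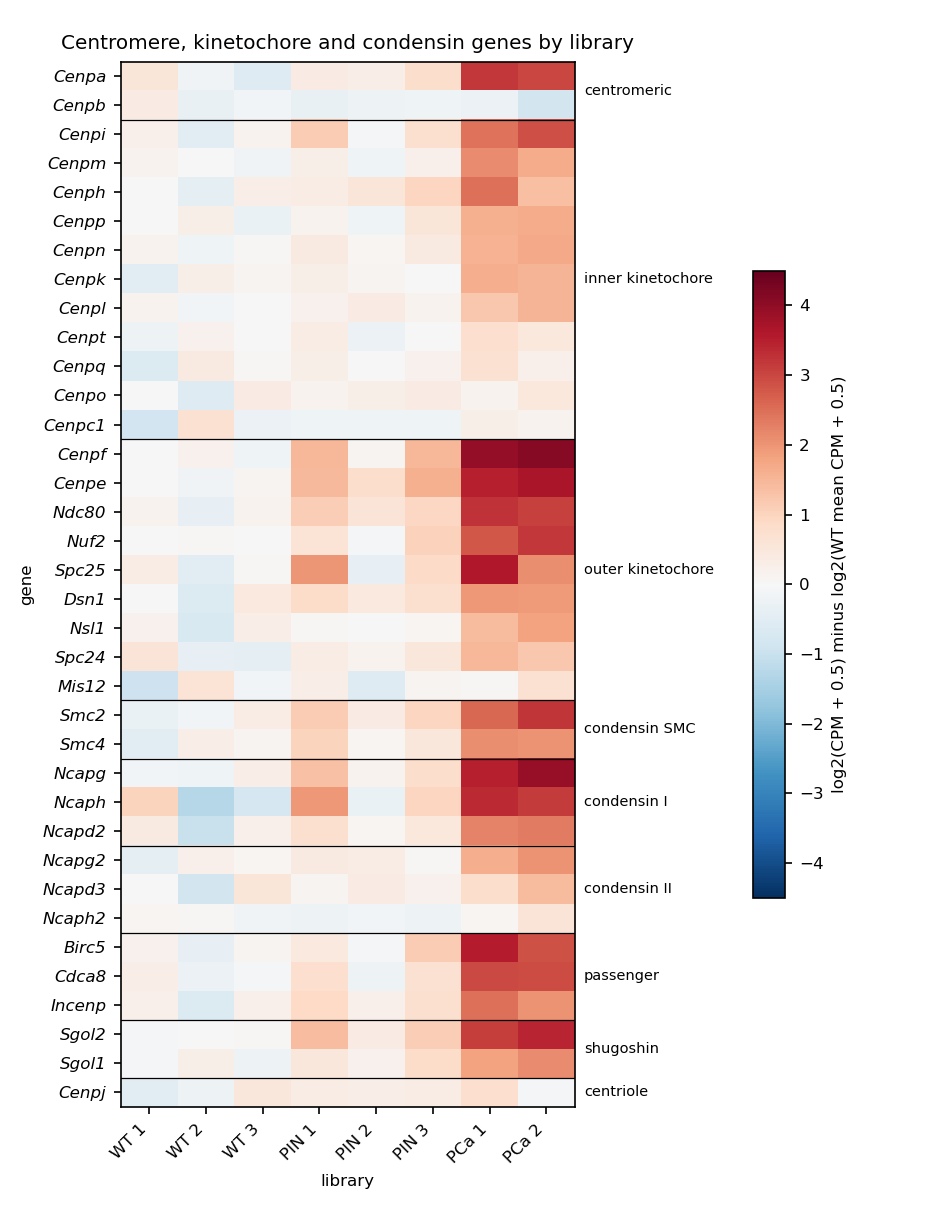
Level of each of the 36 genes (y axis, grouped by role) in each of the 8 libraries (x axis), as log2(CPM + 0.5) minus the log2 of the WT mean CPM + 0.5, with red for higher and blue for lower. The 2 PCa columns are red for most genes, PIN 1 and PIN 3 are paler red, and PIN 2 resembles WT, with median values of 2.01 and 1.96 in PCa, 0.41 and 0.53 in PIN 1 and PIN 3, and 0.10 in PIN 2.

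*Cenpa*, which encodes the centromeric histone H3 variant, stood at 2.42, 1.31 and 0.842 CPM in WT 1, 2 and 3, 2.09, 1.96 and 3.01 in PIN 1, 2 and 3, and 17.7 and 15.9 in PCa 1 and 2. Its PCa values lay far above both other groups, which overlap. The log2 fold change of PCa over WT was 3.46 ± 0.50 (edgeR adjusted p = 0.0105), an 11.02-fold rise, and the call was lost in 1 of 17 alternatives. *Cenpb*, whose protein binds the CENP-B box of minor satellite DNA, is the highest member in WT per length, with 91.2 ± 31.9 TPM (SD, n = 3), and had 188, 114 and 134 CPM in WT, 115, 126 and 128 in PIN, and 122 and 82.7 in PCa. The groups overlap, and its log2 fold change was -0.51 ± 0.27 (edgeR adjusted p = 0.276), the 1 negative value among the members. Among genes that are not members but help load CENP-A into chromatin, *Oip5* and *2610039C10Rik*, the table's name for *Mis18a*, rose by 2.81 and 2.08 on the log2 scale (edgeR adjusted p = 0.0145 and 0.0174). The CENP-A chaperone gene *Hjurp* had 37.3, 31.04 and 39.02 CPM in WT, 25.99, 36.6 and 38.7 in PIN, and 89.2 and 48.4 in PCa, with both PCa values above all others, and was not called, with a log2 fold change of 0.94 ± 0.30 (edgeR adjusted p = 0.0952).

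Among the 11 genes of the inner kinetochore network the log2 fold changes ran from 0.22 to 3.34, with a median of 1.87. *Cenpi*, of the CENP-H/I/K/M group, had 0.939, 0.363 and 0.842 CPM in WT, 2.20, 0.654 and 1.51 in PIN, and 6.05 and 8.50 in PCa, and rose by 3.34 ± 0.65 (edgeR adjusted p = 0.0247). It was the lowest of the 11 per length in every library. The other 3 genes of its group rose as well, *Cenpm* by 2.46, *Cenph* by 2.42 and *Cenpk* by 1.87 on the log2 scale, with edgeR adjusted p of 0.0265, 0.0373 and 0.0445. *Cenpn* and *Cenpl*, whose products form a pair that reads the CENP-A nucleosome, rose by 1.98 and 1.49 (edgeR adjusted p = 0.0293 and 0.0313). These calls sit near the threshold, and those of *Cenpk*, *Cenph*, *Cenpn* and *Cenpl* were lost in 12, 10, 9 and 9 of 17 alternatives, and those of *Cenpm* and *Cenpi* in 7 and 5.

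The remaining 5 genes of the network were not called. *Cenpc1*, whose protein links the CENP-A nucleosome to the MIS12 complex, had 13.1, 39.2 and 20.2 CPM in WT, 20.8, 21.1 and 21.2 in PIN, and 29.2 and 27.02 in PCa, and with a WT range that holds the PIN and PCa values its log2 fold change was 0.22 ± 0.41 (edgeR adjusted p = 0.773). *Cenpt*, which provides the other link to the outer kinetochore, had 3.91, 5.35 and 4.72 CPM in WT, 5.98, 3.82 and 4.63 in PIN, and 8.11 and 6.75 in PCa. Its PCa values lay above the WT values by a small margin, with a log2 fold change of 0.67 ± 0.35 (edgeR adjusted p = 0.262). The CENP-O group was not uniform. *Cenpp* had 0.939, 1.22 and 0.659 CPM in WT, 1.12, 0.758 and 1.62 in PIN, and 3.83 and 4.11 in PCa, with both PCa values above all others, and missed the threshold narrowly, at 2.08 ± 0.52 (edgeR adjusted p = 0.0506). *Cenpo* had 7.91, 5.08 and 10.2 CPM in WT, 8.67, 9.51 and 10.02 in PIN, and 8.79 and 11.04 in PCa, with a log2 fold change of 0.36 ± 0.35 (edgeR adjusted p = 0.558). *Cenpq* had 5.04, 10.6 and 8.16 CPM in WT, 9.72, 7.96 and 9.15 in PIN, and 13.2 and 9.33 in PCa, with a log2 fold change of 0.50 ± 0.37 (edgeR adjusted p = 0.430). The groups overlapped for both genes. For *Cenpo*, 22.5% of its exon bases are shared with genes on the other strand (*Adcy3* and 2410017P09Rik), and the strand setting of the counting is not given in the sources used here, so reads of the partners may be mixed. *Mlf1ip* (CENP-U), a further gene of that group that is not a member, rose by 2.32 (edgeR adjusted p = 0.0288).

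The outer kinetochore genes had the largest median of the roles with more than 3 genes, 3.34 on the log2 scale. *Cenpf*, whose large protein coats kinetochores and the nuclear envelope around mitotic entry, had 3.76, 4.44 and 3.33 CPM in WT 1, 2 and 3, 11.8, 4.20 and 11.7 in PIN 1, 2 and 3, and 67.6 and 73.8 in PCa 1 and 2, and rose by 4.20 ± 0.45 (edgeR adjusted p = 0.00644). *Cenpe*, a kinesin that carries chromosomes along microtubules, had 2.08, 1.81 and 2.27 CPM in WT, 6.59, 3.93 and 7.27 in PIN, and 28.3 and 32.4 in PCa, and rose by 3.88 ± 0.35 (edgeR adjusted p = 0.00461). For both genes the PCa libraries stood close together and far above all others. Of the NDC80 complex, *Ndc80* and *Nuf2*, which form the microtubule-binding arm, rose by 3.74 and 3.48 (edgeR adjusted p = 0.00727 and 0.00971). *Ndc80* had 1.09, 0.589 and 1.06 CPM in WT, 2.52, 1.62 and 2.18 in PIN, and 13.1 and 11.5 in PCa. *Nuf2* had 1.09, 1.18 and 1.10 CPM in WT, 1.98, 1.07 and 2.79 in PIN, and 10.8 and 14.3 in PCa. For both, each PCa value was several times the highest PIN value. The other arm, which anchors the complex, was less even between the libraries. *Spc25* had 2.47, 1.22 and 1.94 CPM in WT, 9.03, 1.34 and 3.84 in PIN, and 28.4 and 9.70 in PCa, so that PCa 1 exceeded PCa 2 by 2.93-fold, the largest ratio between the PCa libraries among the members, and PIN 1 nearly reached PCa 2. It rose by 3.34 ± 0.81 (edgeR adjusted p = 0.0448), a call lost in 9 of 17 alternatives. *Spc24* was low, at 1.43, 0.498 and 0.476 CPM in WT, 1.15, 0.964 and 1.36 in PIN, and 3.15 and 2.50 in PCa, and its log2 fold change of 1.82 ± 0.62 (edgeR adjusted p = 0.108) was not called although both PCa values lay above the rest. Per length, the 4 NDC80 genes summed to 3.69 to 8.74 TPM in WT, 7.99 to 19.3 in PIN, and 81.5 and 62.2 in PCa, so the PCa range lay above both others and WT and PIN overlapped.

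The MIS12 complex, which joins the inner to the outer kinetochore, was measured by 3 members. *Dsn1* rose by 2.18 ± 0.46 (edgeR adjusted p = 0.0312), from 1.93 ± 0.866 CPM (SD, n = 3) in WT to 8.82 and 8.67 in PCa, a call lost in 8 of 17 alternatives. *Nsl1* had 1.24, 0.453 and 1.35 CPM in WT, 1.08, 1.03 and 1.09 in PIN, and 3.54 and 4.83 in PCa. *Mis12* had 14.6, 43.6 and 26.1 CPM in WT, 34.4, 18.8 and 30.8 in PIN, and 29.1 and 45.6 in PCa. Their log2 fold changes were 2.04 ± 0.56 (edgeR adjusted p = 0.0634) and 0.41 ± 0.47 (edgeR adjusted p = 0.622), and PCa lay above all WT and PIN values for *Nsl1* but not for *Mis12*. Transcripts of this complex were far from equal, with *Mis12* at 9.26 to 109 times the TPM of *Nsl1* in every library. In the annotation 7.69% of the exon bases of *Mis12* are shared with *Derl2* on the other strand. The fourth subunit, *Pmf1*, was not a member and had a log2 fold change of 1.21 ± 0.31 (edgeR adjusted p = 0.0541). *Casc5*, the table's name for *Knl1*, the scaffold of the outer kinetochore, had 1.38, 0.317 and 1.21 CPM in WT, 4.97, 2.34 and 4.37 in PIN, and 18.2 and 36.7 in PCa, and rose by 4.82 ± 0.68 (edgeR adjusted p = 0.0103), the largest value of the partner genes. *Ska1*, whose product tracks microtubule ends, had 0.148, 0.181 and 0.293 CPM in WT, 0.828, 0.482 and 0.377 in PIN, and 4.89 and 5.01 in PCa, and rose by 4.53 ± 0.60 (edgeR adjusted p = 0.00865).

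**Figure D3:**
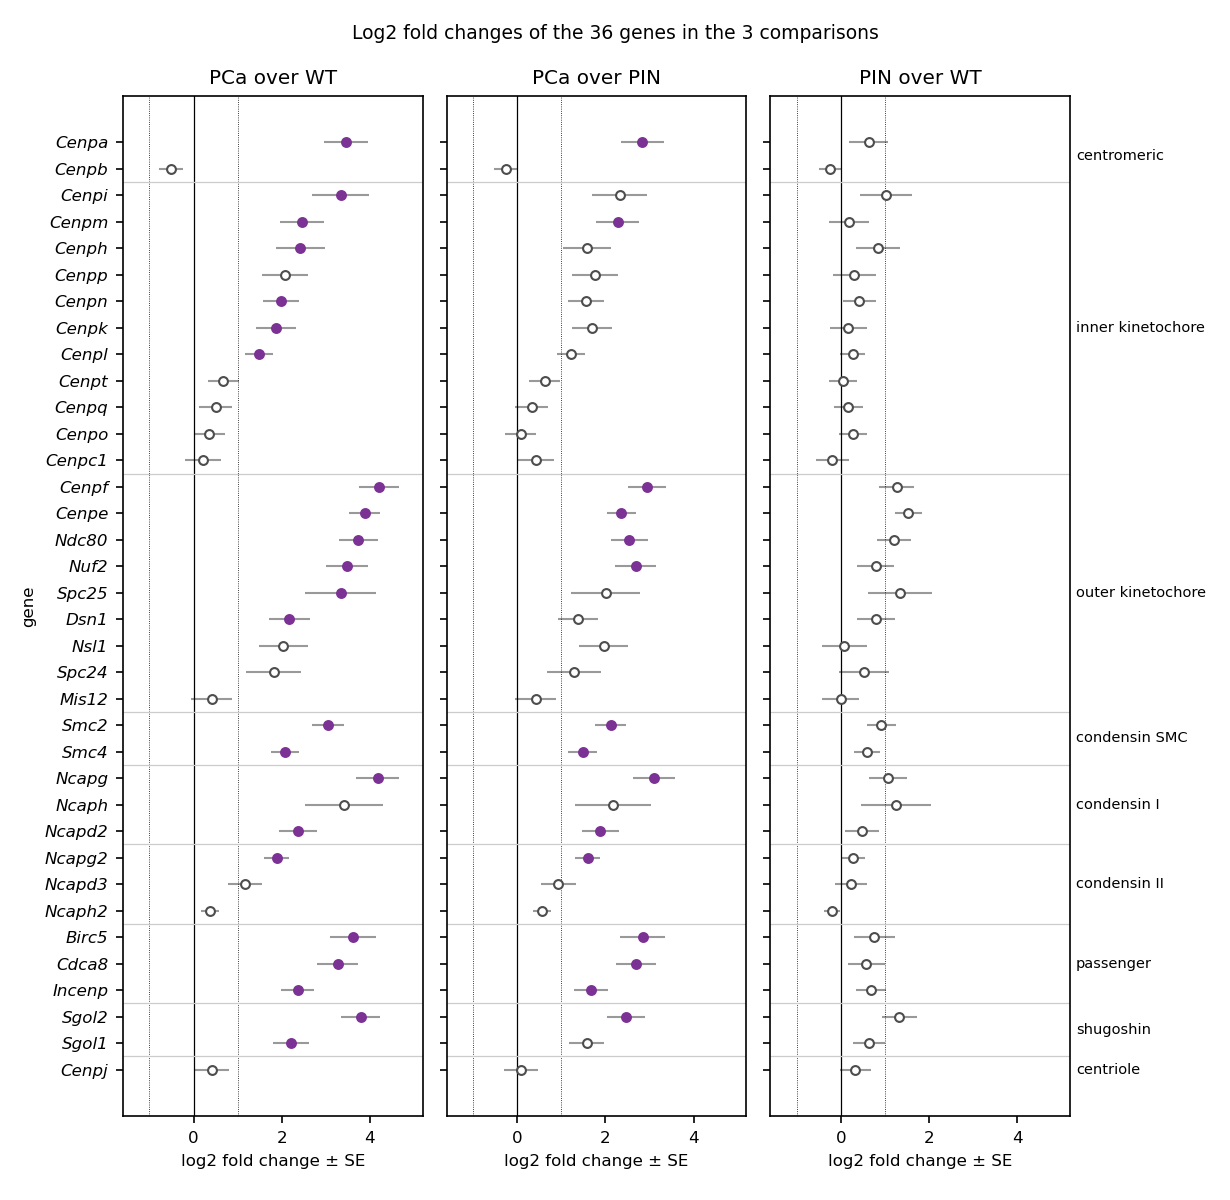
Log2 fold change with its standard error (x axis) of each of the 36 genes (y axis, grouped by role) in PCa over WT, PCa over PIN and PIN over WT, with filled points for called genes and dotted lines at 1 and -1. Filled points number 23, 15 and 0 in the 3 panels, and *Cenpb* lies left of 0 in each of them.

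Condensin genes were called in 5 of 8 cases. The shared ATPase genes both rose. *Smc2* had 4.70, 5.26 and 7.54 CPM in WT, 13.4, 7.75 and 11.98 in PIN, and 37.4 and 59.1 in PCa, and rose by 3.05 ± 0.36 (edgeR adjusted p = 0.00741). *Smc4* had 21.3, 37.2 and 32.8 CPM in WT, 61.7, 32.4 and 43.4 in PIN, and 131 and 126 in PCa, and rose by 2.08 ± 0.33 (edgeR adjusted p = 0.0134). Every PCa value was above every other value for both, and the calls of *Smc4* and, among the condensin I genes, *Ncapd2* were each lost in 3 of 17 alternatives. Among the condensin I subunits, *Ncapg* had 1.09, 0.997 and 1.61 CPM in WT, 3.85, 1.45 and 2.52 in PIN, and 19.1 and 25.6 in PCa, and rose by 4.18 ± 0.49 (edgeR adjusted p = 0.00736). *Ncapd2* had 11.9, 4.21 and 10.4 CPM in WT, 15.01, 9.33 and 12.5 in PIN, and 43.7 and 47.4 in PCa, and rose by 2.36 ± 0.43 (edgeR adjusted p = 0.0216). In *Ncapg*, 13.3% of the exon bases are shared with *Lcorl* on the other strand, and *Lcorl* had a log2 fold change of -0.04. *Ncaph*, the kleisin that closes the condensin I ring, had 8.06, 1.27 and 2.05 CPM in WT, 15.9, 3.03 and 7.95 in PIN, and 43.4 and 37.7 in PCa. Its PCa values lay above all others, but WT 1 was at 8.06 CPM against 1.27 and 2.05 in the other WT libraries, and the log2 fold change of 3.42 ± 0.89 (edgeR adjusted p = 0.0542) just missed the threshold. It passed in 5 of 17 alternatives.

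The condensin II subunits moved less. *Ncapg2* had 7.07, 11.1 and 10.1 CPM in WT, 12.6, 11.95 and 9.91 in PIN, and 30.02 and 39.8 in PCa, and rose by 1.89 ± 0.28 (edgeR adjusted p = 0.0115). *Ncapd3* had 23.1, 12.96 and 33.8 CPM in WT, 25.6, 29.96 and 26.4 in PIN, and 40.5 and 63.98 in PCa, with a log2 fold change of 1.17 ± 0.39 (edgeR adjusted p = 0.103). *Ncaph2*, the condensin II kleisin, had 106, 102 and 89.6 CPM in WT, 83.5, 91.03 and 85.5 in PIN, and 107 and 149.9 in PCa, with a log2 fold change of 0.37 ± 0.20 (edgeR adjusted p = 0.277). Both of these stood above WT in both PCa libraries, by little in PCa 1. For *Ncaph2*, 18.3% of the exon bases are shared with *Sco2* on the other strand, and *Sco2* had a log2 fold change of 0.03. Per length, *Ncaph2* was the most abundant of the condensin subunits in WT at 71.00 ± 10.01 TPM (SD, n = 3), while *Ncaph* stood at 2.76 ± 2.79 and *Ncapg* at 0.538 ± 0.214.

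The ratio between both complexes also differed between the groups. Condensin I subunits summed to 14.8, 3.42 and 10.2 TPM in WT 1, 2 and 3, to 26.1, 10.4 and 16.2 in PIN 1, 2 and 3, and to 85.7 and 90.6 in PCa 1 and 2. Condensin II subunits summed to 97.04, 70.5 and 98.3 TPM in WT, 91.1, 101 and 86.7 in PIN, and 142 and 212 in PCa. Of these sums *Ncaph2* gave 80.3, 60.4 and 72.3 TPM in WT, 68.5, 75.9 and 66.3 in PIN, and 96.8 and 141.6 in PCa. Most of each condensin II sum is thus that gene, whose exons are partly shared with *Sco2*. The ratio of condensin I to condensin II was therefore 0.153, 0.0484 and 0.104 in WT, 0.286, 0.103 and 0.187 in PIN, and 0.602 and 0.428 in PCa. Both PCa ratios lay above all others, and the PIN ratios overlapped those of WT. The sum of *Smc2* and *Smc4* relative to *Smc1a* and *Smc3*, the corresponding ATPases of cohesin, was 0.194, 0.184 and 0.188 in WT, 0.368, 0.208 and 0.260 in PIN, and 0.800 and 0.610 in PCa. Here WT was narrow, all 3 PIN ratios lay above it, and PCa lay above PIN. These ratios are descriptions of transcript levels, given with no test.

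**Figure D4:**
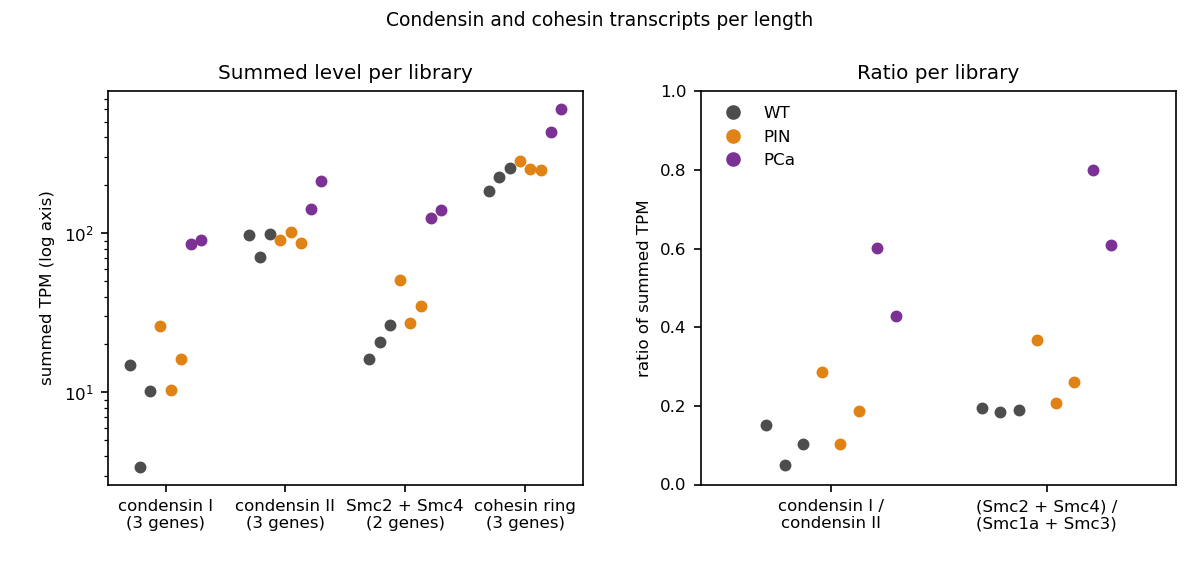
Left, summed TPM (log axis) of the 3 condensin I subunits, 3 condensin II subunits, *Smc2* with *Smc4*, and the 3 cohesin ring genes *Smc1a*, *Smc3* and *Rad21*, with 1 point per library (gray WT, orange PIN, purple PCa). Right, the ratios of summed TPM per library, where the PCa points of condensin I over condensin II lie at 0.602 and 0.428 and the highest other point at 0.286. *Ncaph2* makes up most of each condensin II sum.

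The chromosome passenger complex corrects faulty attachments and acts in cytokinesis. All 3 of its members rose. *Birc5* (survivin) had 1.78, 1.04 and 1.68 CPM in WT, 2.23, 1.45 and 3.96 in PIN, and 22.5 and 14.3 in PCa, and rose by 3.61 ± 0.52 (edgeR adjusted p = 0.0105). *Cdca8* (borealin) had 2.22, 1.36 and 1.57 CPM in WT, 3.24, 1.38 and 3.09 in PIN, and 16.9 and 16.4 in PCa, and rose by 3.27 ± 0.47 (edgeR adjusted p = 0.0103). *Incenp*, the scaffold of the complex, had 6.72, 3.49 and 6.73 CPM in WT, 11.01, 6.72 and 9.57 in PIN, and 33.8 and 24.3 in PCa, and rose by 2.36 ± 0.38 (edgeR adjusted p = 0.0144). PCa lay above WT and PIN for each of them. The kinase of the complex, *Aurkb*, is not a member and rose by 3.06 (edgeR adjusted p = 0.0119).

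Shugoshins protect centromeric cohesion. *Sgol1* had 1.88, 2.54 and 1.65 CPM in WT, 3.13, 2.38 and 3.92 in PIN, and 8.27 and 10.5 in PCa, and rose by 2.21 ± 0.40 (edgeR adjusted p = 0.0206). *Sgol2* had 0.989, 0.997 and 1.10 CPM in WT, 3.46, 1.48 and 2.83 in PIN, and 12.6 and 16.05 in PCa, and rose by 3.79 ± 0.45 (edgeR adjusted p = 0.00741). The PCa values of both lay above all others, and the call of *Sgol1* was lost in 5 of 17 alternatives. In the annotation 49.7% of the exon bases of *Sgol2* are shared with *Kctd18* on the other strand. *Kctd18* had 9.05, 7.16 and 9.33 CPM in WT, 9.39, 13.4 and 10.6 in PIN, and 18.6 and 12.3 in PCa, with a log2 fold change of 0.86 (edgeR adjusted p = 0.121). *Cenpj*, the centriole gene, had 8.65, 10.3 and 17.3 CPM in WT, 15.4, 14.8 and 15.4 in PIN, and 20.9 and 11.4 in PCa, and its PCa values fell on both sides of the WT value of 17.3, with a log2 fold change of 0.42 ± 0.38 (edgeR adjusted p = 0.523).

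PCa was then compared with PIN, which has the same genotype. The paper reports PIN lesions from a younger age than PCa lesions, and the ages behind these libraries are not given. Lesion and age therefore cannot be told apart in this comparison. *Ncapg*, *Cenpf* and *Birc5* rose most, by 3.10, 2.94 and 2.85 on the log2 scale. Of the 36 members, 15 rose and 0 fell, against 2.55% of all tested genes called higher, and all 15 were also among the 23 called against WT, a comparison that uses the same PCa libraries. The median log2 fold change was 1.69 over the members and 0.07 over all tested genes. Both PCa libraries exceeded all PIN libraries for 31 of 36 members, as they did for 21.1% of all tested genes. The count depended strongly on the libraries used. It was 12 without WT 1, 6 without WT 3, 2 without PIN 1, 2 without PIN 2, 0 without PIN 3, 15 without PCa 1, 16 without both WT 1 and PCa 1, and 6 with only the 2 groups compared. In all, 0 members were called in every fit, while the median stayed between 1.55 and 1.79 when 1 library was left out.

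All 3 chromosome passenger genes, both SMC genes, *Ncapg*, *Ncapd2* and *Ncapg2* passed in PCa against PIN, as did *Cenpa*, *Cenpm*, *Ndc80*, *Nuf2*, *Cenpe*, *Cenpf* and *Sgol2*. Values for *Cenpa* were 2.83 ± 0.49 (edgeR adjusted p = 0.0247), for *Ncapg* 3.10 ± 0.47 (edgeR adjusted p = 0.0168) and for *Cenpe* 2.36 ± 0.33 (edgeR adjusted p = 0.0141). The members called against WT but not against PIN were *Cenph*, *Cenpi*, *Cenpk*, *Cenpl*, *Cenpn*, *Spc25*, *Dsn1* and *Sgol1*, with log2 fold changes over PIN of 1.59, 2.32, 1.70, 1.23, 1.56, 2.01, 1.38 and 1.57 and edgeR adjusted p from 0.0599 to 0.182. Only *Cenpm* of the 11 inner kinetochore genes was called in this comparison. The other 13 members not called were those not called against WT. Among them *Ncaph* had 2.18 ± 0.86 (edgeR adjusted p = 0.185), *Nsl1* 1.97 ± 0.56 (edgeR adjusted p = 0.0839) and *Cenpp* 1.77 ± 0.52 (edgeR adjusted p = 0.0922). *Spc24* followed with 1.29 and *Ncapd3* with 0.94, and the others lay between -0.26 for *Cenpb* and 0.63 for *Cenpt*, with edgeR adjusted p of 0.148 or more.

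The size of the rise from PIN to PCa went with how low a member was in WT, whose values do not enter that fold change. Across the 36 members the Spearman rank correlation of the mean TPM in WT with the log2 fold change of PCa over PIN was -0.78. It was -0.80 across the 47 tested partner genes and -0.20 across all 14034 tested genes. The points share their libraries and are not independent, so this is a description, with no p. The filter on low counts removed none of the 36 members. Among the partner genes and all genes it keeps one that is low in WT only where other libraries are higher, and its part in those values was not tested. Split by the calls against WT, which the WT values themselves help to decide, the 23 called members had WT means of 0.396 to 17.99 TPM, with a median of 1.83, while the 13 others had 0.949 to 91.2, with a median of 8.55. In PCa the medians of these sets were 15.1 and 16.7 TPM. The spread between members was narrower in PCa, and the standard deviation of log2 TPM across the 36 genes was 1.78 to 2.11 in WT, 1.53 to 1.80 in PIN, and 1.16 and 1.14 in PCa.

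**Figure D5:**
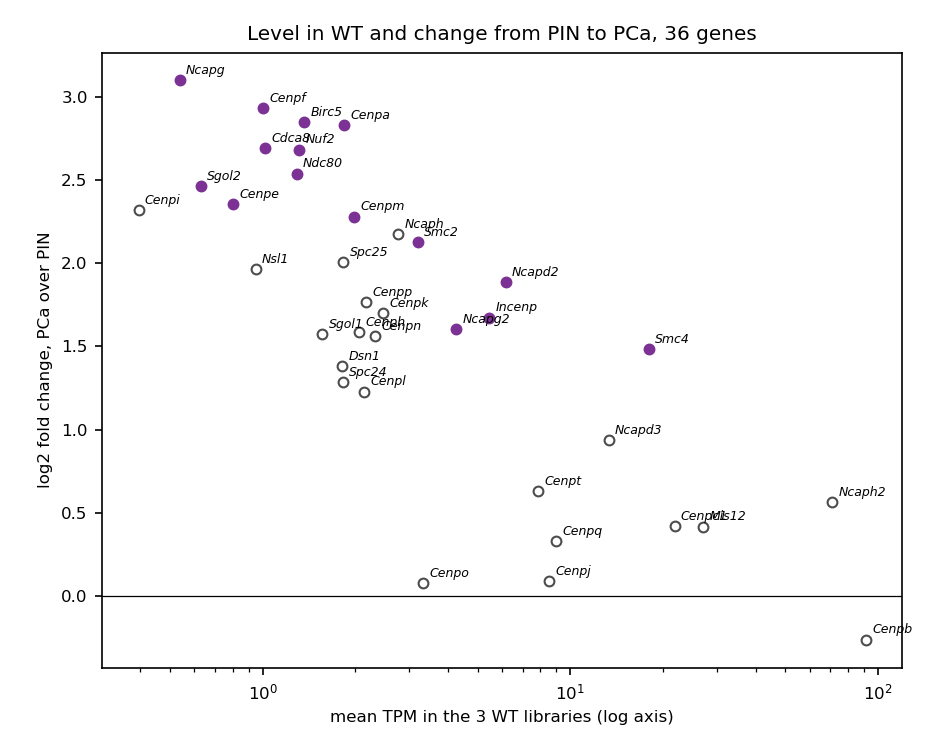
Mean TPM of each of the 36 genes in the 3 WT libraries (x axis, log axis) against its log2 fold change of PCa over PIN (y axis), with filled points for genes called in that comparison. The points fall from *Ncapg* at the upper left, at 0.538 TPM and 3.10, to *Cenpb* at the lower right, at 91.2 TPM and -0.26.

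PIN was compared with WT, the comparison of early lesions with normal tissue. None of the 36 members passed, and edgeR's quasi-likelihood test called 0 of them and 0.0% of all tested genes higher. At an unadjusted p under 0.05, 6 of 36 members were higher in PIN and 0 lower, against 1.92% of all tested genes higher. DESeq2 called 1 member, *Cenpe*, and limma-trend called 0. The median log2 fold change was 0.56 over the members and -0.02 over all tested genes, and the members' median was 0.35 without PIN 1. The largest values were those of *Cenpe*, 1.53 ± 0.31 (edgeR adjusted p = 1.00), *Spc25*, 1.33 ± 0.73 (edgeR adjusted p = 1.00), and *Sgol2*, 1.33 ± 0.40 (edgeR adjusted p = 1.00). The smallest were those of *Cenpb*, -0.24 ± 0.24 (edgeR adjusted p = 1.00), *Cenpc1*, -0.20 ± 0.37 (edgeR adjusted p = 1.00), and *Ncaph2*, -0.19 ± 0.18 (edgeR adjusted p = 1.00). All 3 PIN libraries lay above all 3 WT libraries for 6 members (*Cenph*, *Cenpl*, *Ndc80*, *Cenpe*, *Smc2* and *Sgol2*), and this arrangement held for 6.48% of all tested genes.

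The PIN libraries differed among themselves. In PIN 1, 23 of 36 members exceeded every WT library, and in PIN 3, 22 did, while 21.2% and 18.8% of all tested genes did so. In PIN 2, 7 members did, and 21.7% of all tested genes did so there. PIN 2 was the lowest of the 3 PIN libraries for 27 of 36 members, while it was lowest for 37.2% of all tested genes. *Spc25* is an example, with 9.03 and 3.84 CPM in PIN 1 and PIN 3 and 1.34 in PIN 2, inside the WT range. *Ncaph* stood at 15.95 and 7.95 CPM against 3.03, and *Cenpf* at 11.8 and 11.7 against 4.20. Relative to the mean of WT, the median member was 0.41 and 0.53 higher on the log2 scale in PIN 1 and PIN 3 and 0.10 higher in PIN 2. *Mki67*, a proliferation marker that is not a member, had 20.3, 16.1 and 18.6 CPM in WT, 49.6, 19.5 and 42.98 in PIN, and 223 and 305 in PCa, with PIN 2 again the lowest of the PIN libraries. *Top2a*, which encodes the topoisomerase that untangles chromosomes before they separate, had 31.4, 35.6 and 26.8 CPM in WT, 46.97, 27.7 and 54.4 in PIN, and 136 and 149 in PCa. Basal epithelial markers summed to 363 and 387 CPM in PIN 1 and PIN 3 and to 178 in PIN 2, and leukocyte markers to 49.4, 41.5 and 90.8 CPM in PIN 1, 3 and 2. The part of these in the difference was not tested.

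In PCa the libraries were closer. PCa 1 and PCa 2 each exceeded every WT library for 32 of 36 members, as did 32.9% and 31.9% of all tested genes. For 29 of 36 members the values of PCa 1 and PCa 2 were within 1.5 times of each other, 18 members were higher in PCa 1 and 18 in PCa 2. The widest ratios of PCa 1 to PCa 2 were 2.93 for *Spc25*, 2.33 for *Cenph* and 1.83 for *Cenpj* on one side and 0.632 for *Smc2*, 0.634 for *Ncapd3* and 0.638 for *Mis12* on the other.

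The members were also set beside 6 proliferation markers, *Mki67*, *Top2a*, *Pcna*, *Mcm2*, *Ccnb1* and *Cdk1*. These summed to 88.9 to 96.8 CPM in WT, 86.1 to 147 in PIN, and 481 and 603 in PCa, and 5 of 6 rose in PCa against WT. *Mki67* rose by 3.85 ± 0.40 (edgeR adjusted p = 0.00602) and *Top2a* by 2.19 ± 0.30 (edgeR adjusted p = 0.00932). The mean log2 CPM of the 36 members was below that of the 6 markers by 1.26 to 1.41 in WT, by 1.16 to 1.46 in PIN, and by 1.59 and 1.89 in PCa. The gap was widest in the PCa libraries.

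To set the members beside related genes, 51 partner genes of the table were examined, of which 47 were tested. In PCa against WT 19 rose and 1 fell, while 4.35% of all tested genes were called higher and 4.18% lower, with a median log2 fold change of 0.93 over the partner genes and 0.01 over all tested genes. The count of 20 became 11 without WT 3, 13 without PIN 3, 15 without WT 1, 21 without PCa 1, 18 without both WT 1 and PCa 1, and 2 with only the 2 groups compared. Of 18 kinetochore and centromere partners, 11 rose, with a median of 2.37. Among these 11, *Ska1* and *Cenpw* were under 1 CPM in every WT and PIN library, so they passed the filter on low counts only through PCa. *Casc5* and *Ska1* were highest. At the other end *Stra13* (the table's name for *Cenpx*, of the CENP-T-W-S-X group) had 21.2, 33.7 and 24.7 CPM in WT, 12.99, 17.2 and 16.3 in PIN, and 12.04 and 7.89 in PCa, and fell by 1.41 ± 0.32 (edgeR adjusted p = 0.0381). This call was lost with only the 2 groups compared, and also without any 1 of the WT or PIN libraries or without PCa 2, where the edgeR adjusted p was 0.0550 to 0.0948. *Zw10*, which also acts in vesicle transport, had 28.6, 34.03 and 31.9 CPM in WT, 31.5, 28.9 and 31.98 in PIN, and 27.3 and 40.7 in PCa, with a log2 fold change of 0.11 ± 0.23 (edgeR adjusted p = 0.794). Of 7 tested passenger and topoisomerase partners, 4 rose. *Kif4* and *Kif2c*, mitotic kinesins, rose by 3.67 and 3.58 (edgeR adjusted p = 0.00773 and 0.0103), and the smallest values were 0.33 for *Gsg2* (haspin) and 0.50 for *Rcc1* (edgeR adjusted p = 0.615 and 0.348).

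Cohesin holds sister chromatids together and also folds interphase chromosomes. Of its 15 genes, 4 rose, against 4.35% of all tested genes called higher, with a median log2 fold change of 0.45. *Esco2* had 0.939, 0.363 and 1.68 CPM in WT, 3.13, 1.17 and 1.88 in PIN, and 20.9 and 18.2 in PCa, and rose by 4.28 ± 0.68 (edgeR adjusted p = 0.0134). *Cdca5* (sororin) rose by 2.84 (edgeR adjusted p = 0.0210). Both establish cohesion in S phase, and with *Espl1* (separase, 2.79) and the ring subunit *Rad21* they make up the 4. *Rad21* had 114, 163 and 125 CPM in WT, 155, 124 and 125 in PIN, and 262 and 338 in PCa, and rose by 1.16 ± 0.24 (edgeR adjusted p = 0.0288). The smallest values were those of *Stag2*, -0.24 ± 0.43 (edgeR adjusted p = 0.758), and *Mau2*, -0.04 ± 0.17 (edgeR adjusted p = 0.908). Of the 6 genes of the SMC5/6 complex and SMCHD1, edgeR called 0, against 4.35% of all tested genes called higher, and DESeq2 and limma-trend each called 1. *Smchd1* and *Nsmce2* had the largest log2 fold changes, 1.14 and 0.91, and *Nsmce1* and *Smc6* the smallest, 0.06 and 0.27 (edgeR adjusted p = 0.0551, 0.0542, 0.939 and 0.733). Of 4 meiotic cohesin genes only *Rec8* was tested. It had 52.2, 45.4 and 30.8 CPM in WT, 52.3, 67.9 and 28.4 in PIN, and 0.161 and 59.2 in PCa, so that it was nearly absent from PCa 1 alone, with a log2 fold change of -0.53 ± 1.43 (edgeR adjusted p = 0.844).

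In PCa against PIN 16 of the 47 tested partner genes rose and 0 fell, against 2.55% of all tested genes called higher, with a median of 0.71 against 0.07. That count was 6 without WT 1, 5 without WT 3, 0 without any 1 of the PIN libraries, 7 without PCa 2, 19 without PCa 1, 20 without both WT 1 and PCa 1, and 4 with only the 2 groups compared. In PIN against WT edgeR called 0 of the 47, where it called 0.0% of all tested genes higher. At an unadjusted p under 0.05, 6 of the 47 were higher, against 1.92% of all tested genes. For the 1 that was lower, no share over all genes is given. DESeq2 and limma-trend also called 0. *Casc5* again had the largest value, 2.00, and *Stra13* the smallest, -0.78.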

How the data were processed

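RNA of normal prostate (3 WT) and of lesions selected under the microscope (3 PIN and 2 PCa) had been made into libraries with ribosomal RNA removed. The authors trimmed paired-end reads with cutadapt 1.9.1, aligned them to mm9 with HISAT2 2.1.0 and counted them per gene with HTSeq 0.6.1. The deposited values are raw counts, with the summed exon length of each gene, which served here to compute TPM. From these counts, edgeR 4.0.16 in R 4.3.3 gave every test (trimmed mean of M-values, more than 1 CPM in at least 2 samples, quasi-likelihood F-test, 1 fit of 8 libraries and 3 groups with 5 residual degrees of freedom, Benjamini-Hochberg adjustment per comparison). A standard error is the log2 fold change divided by the square root of its F value. The study's methods name these settings, with TPM as input, where counts were used here. They do not say whether the groups shared a fit. Steps were tested on simulated counts. Alternatives were upper-quartile normalization, DESeq2 1.42.0, limma-trend 3.58.1, no filter, filterByExpr, only the groups compared, a replicate block, no fold limit, leaving out each library, and, added after seeing the data, leaving out WT 1 with PCa 1.

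The members and lists were chosen with earlier results of these data known. Named in full are *Cenpa*, the largest and smallest change of each role, all genes of roles with 3 or fewer, uncalled members, the 3 largest and smallest in PIN against WT, the 2 largest and smallest of each partner list, and *Mki67* and *Top2a*. *Ndc80*, *Nuf2*, *Cenpe*, *Spc25*, *Oip5*, *Mis18a*, *Hjurp* and the shared neighbors were added after seeing values. Total counts limit the precision of members with few counts, and 2 PCa libraries limit every comparison with PCa. The table lists *Mis18a*, *Ska3* and haspin under older symbols, matched through RefSeq synonyms, and 1 (*Ska2*) is not analysed here. Results for some other items are not reported here. Promoter windows are from RefSeq, and gene positions from GENCODE vM1.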

Additional observations from a re-analysis of the deposited data

How the results depend on the processing

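The median log2 fold changes of the members kept their sign under each alternative. With 1 library left out they were 2.15 to 2.33 for PCa over WT, 1.55 to 1.79 for PCa over PIN and 0.35 to 0.69 for PIN over WT. The counts of calls moved more. Leaving out 1 library gave 12 to 21 called members for PCa over WT and 0 to 19 for PCa over PIN, and 11 to 21 and 0 to 21 called partner genes. With only the 2 groups compared, 9 and 6 members and 2 and 4 partner genes were called. DESeq2 called 24 members for PCa over PIN and 1 for PIN over WT, and with no filter on low counts 8 partner genes were called for PCa over PIN. A lone PCa library was assumed to vary like the other groups. Fewer libraries leave fewer residual degrees of freedom, and beyond that the cause was not tested.

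With the replicate number as a replicate block, 15 members and 9 partner genes were called for PCa over WT, and 1 and 0 for PCa over PIN. The fall of *Stra13* was not among those 9 calls. The libraries share only a number. Correlations between the deviations of same-numbered libraries ran from -0.06 to 0.28, and those of other pairs from -0.28 to 0.16. The highest values were between same-numbered libraries, but not every library correlated best with its own number. Whether the number marks a pairing was not tested.

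Of the 36 members in both comparisons with PCa, and of the 6 named for PIN over WT, *Cenpc1*, *Cenpj*, *Cenpb* and *Cenpo* changed sign when libraries were left out. Ranges for PCa over WT were -0.12 to 0.76 for *Cenpc1* (negative without WT 1) and -0.26 to 0.80 for *Cenpj* (negative without PCa 1). For PCa over PIN they were -0.40 to 0.48 for *Cenpj* (negative without PCa 1), -0.56 to 0.011 for *Cenpb* (positive without PCa 2) and -0.075 to 0.25 for *Cenpo* (negative without PCa 2). For PIN over WT *Cenpc1* ranged from -0.49 to 0.34 (positive without WT 2). None of these was called in the fit reported. Single members rest on as few as 8 counts in a library, where counting error is largest.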
